A study of Mus musculus with 20 samples.

Results

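The levels of 10 genes of the liver's extracellular matrix and of the cells that make it were followed across untreated mice, streptozotocin-treated mice and streptozotocin-treated mice fed phloridzin. They were 7 collagen chains (Col1a1, Col1a2, Col3a1, Col4a1, Col4a2, Col5a2 and Col6a3), the proteoglycan Lum, the crosslinking enzyme Lox and the receptor Pdgfrb. They were chosen by name, with earlier results of these data known. Each was read from the probe set (the group of oligonucleotides that reports a transcript) with the highest mean over the 20 arrays. Only probe sets assigned to a single gene were used. The genes are 10 of 18193 with such a probe set. Of the 10, 9 passed a filter on low signal that kept 12947 genes, and Lox did not.

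The mice were male BALB/c animals aged 6 weeks on arrival. Streptozotocin (STZ), which kills pancreatic beta cells and so causes diabetes, was given as 1 intraperitoneal injection of 185 mg/kg, and mice with a non-fasting blood glucose of 330 to 590 mg/dL entered the diet groups. The 4 groups had 5 arrays each, 1 per mouse, from study groups of 6: untreated mice on AIN93G diet, STZ mice on AIN93G diet, and STZ mice on AIN93G diet with 0.1% or 0.5% phloridzin. All groups received their diet for 14 days. Phloridzin is a plant glucoside that blocks sodium-glucose cotransporters, and so lets glucose pass into the urine. Untreated mice received no injection, so the toxin, the injection, the choice by blood glucose and the diabetic state cannot be told apart. The mice shared cages, and the labels do not give which mice did. The RNA was total liver RNA, so fewer cells of a type and less RNA per cell cannot be told apart. Array medians lay between 11.2 and 17.1, and arrays of 1 group correlated with each other at 0.971 to 0.985. In hepatocyte transcripts 1 array stood apart: the summed signal of 13 hepatocyte markers was 270498 in 0.1% phloridzin replicate 4 and at most 165907 in the other arrays. With it, 5 of the 9 measured genes were called lower at 0.1% against untreated mice, as were 8.98% of all genes. Without it, 4 of the 9 were. The call lost was that of Col4a1, which was also lost without some other single arrays. With 1 array left out at a time, 1492 to 2620 of all genes were called there in either direction. Signal of 17.1, the highest array median, serves here as the limit of background.

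Hepatic stellate cells lie between the hepatocytes and the sinusoidal endothelium. In the quiescent state they store vitamin A. When the liver is injured, they respond to platelet-derived growth factor and transforming growth factor beta, divide and become the main source of fibrillar collagen. Collagen I is built from Col1a1 and Col1a2 chains and collagen III from Col3a1 alone, and both form the tensile fibrils of portal tracts and septa. Collagen IV, built mainly from Col4a1 and Col4a2, forms the network of basement membranes and of the thin matrix along the sinusoids.

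In STZ mice against untreated mice, 5 of the 9 measured genes fell and none rose: Col3a1, Pdgfrb, Col4a1, Col6a3 and Col1a2. The falls were between 1.44-fold and 2.55-fold. Col1a1, Col4a2, Col5a2 and Lum did not pass the test. Over all 12947 genes, 6.89% were called lower in this comparison, 6.9% higher and 13.8% in either direction. For 4 of the 9, Col3a1, Col4a1, Col6a3 and Pdgfrb, all STZ mice lay below all untreated mice, as did 6.75% of all genes. The median difference of the 9 genes was −0.52 on the log2 scale, against −0.05 over all genes. Because the genes were chosen with earlier results of these data known, these counts and medians are a description. Calls are at a limma adjusted p under 0.05 over all genes kept, and differences and folds are on the scale of log2(signal + 16), which understates the change of dim genes.

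**Figure D1:**
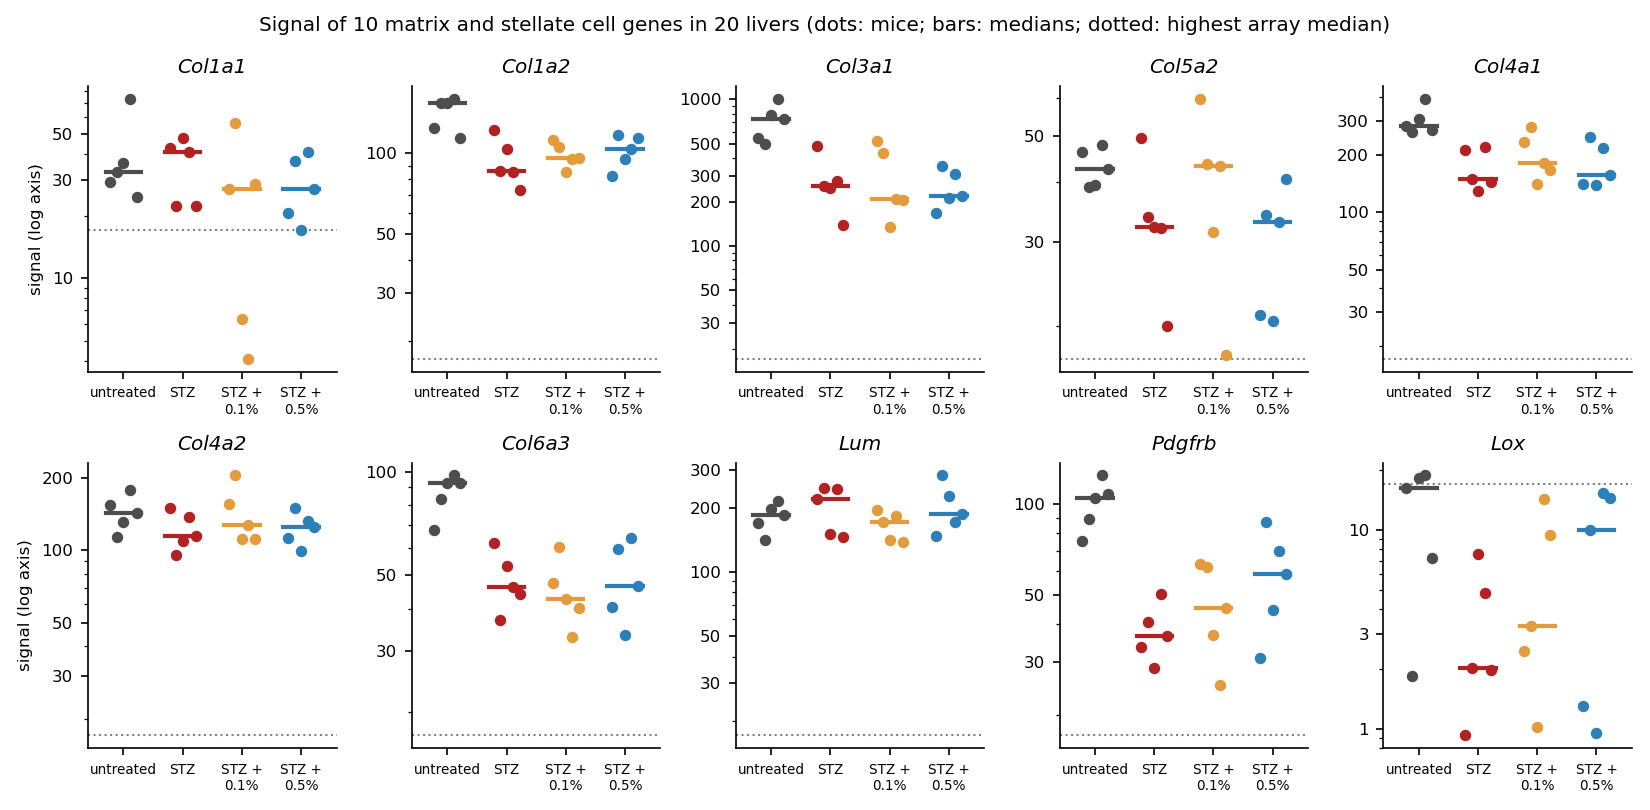
Signal of each of the 10 genes in each of the 20 livers, on log axes that differ between panels. Each dot is a mouse, each bar a group median and the dotted line the highest array median (17.1); Col3a1, Col4a1, Col6a3 and Pdgfrb are lower in all 5 STZ mice than in any untreated mouse, while Lum overlaps throughout and Lox lies at background.

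Col3a1, the only chain of collagen III, fell in STZ mice. Its signal was 544, 494, 785, 1005 and 739 in the 5 untreated mice. It was 483, 255, 248, 279 and 140.1 in the STZ mice. The highest STZ value lay just under the lowest untreated value, and the other 4 were well below it. The mean signal was 281 ± 125 (SD, n = 5) in STZ mice and 713 ± 205 (SD, n = 5) in untreated mice. The difference was −1.35 ± 0.32 (SE) on the log2 scale, a 2.55-fold fall (limma adjusted p = 0.00793). With 1 array left out at a time, the fall ranged from 2.21-fold, without STZ replicate 5, to 2.95-fold, without STZ replicate 1 (limma adjusted p at most 0.0291). The dimmer Col3a1 probe set, above background on 10 of 20 arrays, was also lower, by 0.72 (limma adjusted p = 0.0377). For a further probe set read on its own, here and below, the adjustment ran over 34945 probe sets. On that footing the brighter Col3a1 probe set had a limma adjusted p of 0.0145. The mice fed phloridzin were low as well. Those on 0.1% had Col3a1 signals of 517, 434, 136, 209.7 and 208, and those on 0.5% had 167, 354, 213, 309 and 220.3. The 0.5% group did not overlap the untreated group, and 1 mouse of the 0.1% group did.

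Col1a2, the minor chain of collagen I, fell by a smaller factor. Its signal was 124, 154, 155, 159 and 114 in untreated mice and 122, 85.7, 104, 85.2 and 73.2 in STZ mice. One STZ mouse, replicate 1, lay above the lowest untreated mouse. The means were 94.0 ± 19.2 and 141 ± 20.5 (SD, n = 5 each), and the fall of 0.52 ± 0.12 (SE) on the log2 scale was 1.44-fold (limma adjusted p = 0.00792). A dimmer Col1a2 probe set, above background on 12 of 20 arrays, had a difference of −0.61 that did not pass (limma adjusted p = 0.166), and the remaining one was at background throughout. Under phloridzin the signals were 112, 105, 85.4, 95.4 and 95.7 at 0.1% and 82.2, 117, 95.3, 103 and 114 at 0.5%. All 5 mice of the 0.1% group lay below the untreated range.

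The sequences upstream of these 2 fibrillar collagen genes, both of which fell, are shown with the common promoter elements that each carries. The sequences are the 250 bases before each start in RefSeq on build GRCm38.p6, with the matches to the motifs searched in capitals. Both genes lie on the plus strand, Col3a1 at chr1:45311288-45311537 and Col1a2 at chr6:4505368-4505617.
Col3a1: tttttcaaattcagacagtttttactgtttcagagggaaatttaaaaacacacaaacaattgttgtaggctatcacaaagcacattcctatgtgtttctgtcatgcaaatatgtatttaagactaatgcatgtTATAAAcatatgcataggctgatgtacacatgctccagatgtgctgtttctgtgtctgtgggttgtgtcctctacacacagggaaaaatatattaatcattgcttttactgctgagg
Col1a2: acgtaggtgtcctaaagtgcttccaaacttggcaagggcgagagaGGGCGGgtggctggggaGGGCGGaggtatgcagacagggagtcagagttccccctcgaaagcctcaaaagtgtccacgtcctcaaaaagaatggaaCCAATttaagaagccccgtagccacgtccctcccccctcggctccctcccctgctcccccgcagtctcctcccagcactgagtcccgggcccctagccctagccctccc
The motifs searched on both strands were the CCAAT box, the TATAAA box, the Sp1 box GGGCGG and the AP-1 site TGANTCA. Col3a1 held 1 TATAAA at positions −117 to −112 from the start, and Col1a2 held GGGCGG at −205 to −200 and −188 to −183 and CCAAT at −109 to −105. Among 32851 RefSeq promoters of this length, 12.37% held TATAAA, 32.74% held GGGCGG, 33.85% held CCAAT and 6.749% held TGANTCA. A match is a description of the letters only. The table had a promoter for 5 of the 10 genes. Among the others, Col4a2, which was not called, held CCAAT and GGGCGG. Col4a1, which fell, held CCAAT, and Col6a3, which also fell, held none of the motifs.

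Col1a1, the major chain of collagen I, did not pass the test at its brighter probe set. Its signal was 29.3, 32.6, 35.9, 73.5 and 24.7 in untreated mice and 42.7, 22.2, 47.5, 40.6 and 22.2 in STZ mice, and the groups overlapped. The difference was −0.09 on the log2 scale with a 95% interval of −0.69 to 0.51 (limma adjusted p = 0.876). In the 0.1% phloridzin group the signals ranged from 4.08 to 56.4, a wider range than in the other groups, and 2 of those mice were below background. The dimmer Col1a1 probe set, above background on 8 of the 20 arrays, was lower in STZ mice by 0.49 (limma adjusted p = 0.0431, each probe set tested on its own over 34945). The call for Col1a1 therefore differed between its probe sets.

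Col5a2, a chain of the minor fibrillar collagen V that nucleates collagen fibrils, was dim. Its signal was 46.2, 39.2, 39.6, 47.9 and 42.7 in untreated mice and 49.6, 33.9, 32.2, 32.1 and 20.1 in STZ mice. Of the 5 STZ mice, 4 lay below the untreated range and 1 lay above it. The difference of −0.28 (95% interval −0.66 to 0.10) did not pass the test (limma adjusted p = 0.337). Col3a1 and Col5a2 are neighbours on chromosome 1, with 24624 bases between them in GRCm38.p6. In each array the Col3a1 value minus the Col5a2 value was taken on the log2 scale. It averaged 3.58 ± 0.38 (SD, n = 5) in untreated and 2.51 ± 0.30 (SD, n = 5) in STZ mice, and all 5 STZ mice lay below the untreated range. The differences between the groups were −1.07 in STZ mice and −1.10 over the 15 STZ mice. The gene pairs compared in this way were chosen after their values were seen, so no test is given for them.

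Collagen IV was read by both of its main chains. Col4a1 signal was 283, 264, 306, 392 and 270.1 in untreated mice and 212, 150.1, 128, 218 and 144 in STZ mice. No STZ mouse reached the lowest untreated value. The means of 303 ± 52.1 and 171 ± 41.5 (SD, n = 5 each) differed by −0.79 ± 0.19 (SE) on the log2 scale, a 1.72-fold fall (limma adjusted p = 0.00859). Under phloridzin Col4a1 was 233, 278, 139.9, 181 and 166 at 0.1% and 141, 249, 139, 217 and 157 at 0.5%. One mouse of the 0.1% group lay inside the untreated range, and none of the 0.5% group did.

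Col4a2, the partner chain, was 154, 113, 132, 178 and 143 in untreated mice. It was 149, 95.4, 109.7, 137 and 115 in STZ mice, where 3 of 5 values lay inside the untreated range. The difference of −0.22 had a 95% interval of −0.54 to 0.10 (limma adjusted p = 0.366). The 2 genes are transcribed away from each other on chromosome 8, and the starts that the RefSeq promoter table gives them overlap by 22 bases. Col4a1 as a whole is annotated further, to base 11312889, so the start used here is that of 1 transcript. The stretch, chr8:11312805-11312826 on GRCm38.p6, is shown on the strand of Col4a2 because it holds both of these starts, Col4a2 at its first base and Col4a1 on the opposite strand at its last, with a GGGCGG in capitals.
Col4a1 and Col4a2: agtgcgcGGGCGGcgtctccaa
The Col4a1 value minus the Col4a2 value averaged 1.00 ± 0.15 (SD, n = 5) in untreated mice and 0.43 ± 0.18 (SD, n = 5) in STZ mice on the log2 scale. With these probe sets all 15 STZ mice over the 3 diets lay below the lowest untreated mouse, and the difference between the groups was −0.57 in STZ mice and −0.55 over the 15. With the other Col4a1 probe set, also above background on all 20 arrays, it was smaller, −0.28 in STZ mice and −0.32 over the 15, and 4 of 5 and 14 of 15 mice lay below the untreated range. On its own that probe set was lower by 0.50 in STZ mice, which did not pass (limma adjusted p = 0.0884), and by 0.47 over the 3 STZ groups (limma adjusted p = 0.0297).

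**Figure D2:**
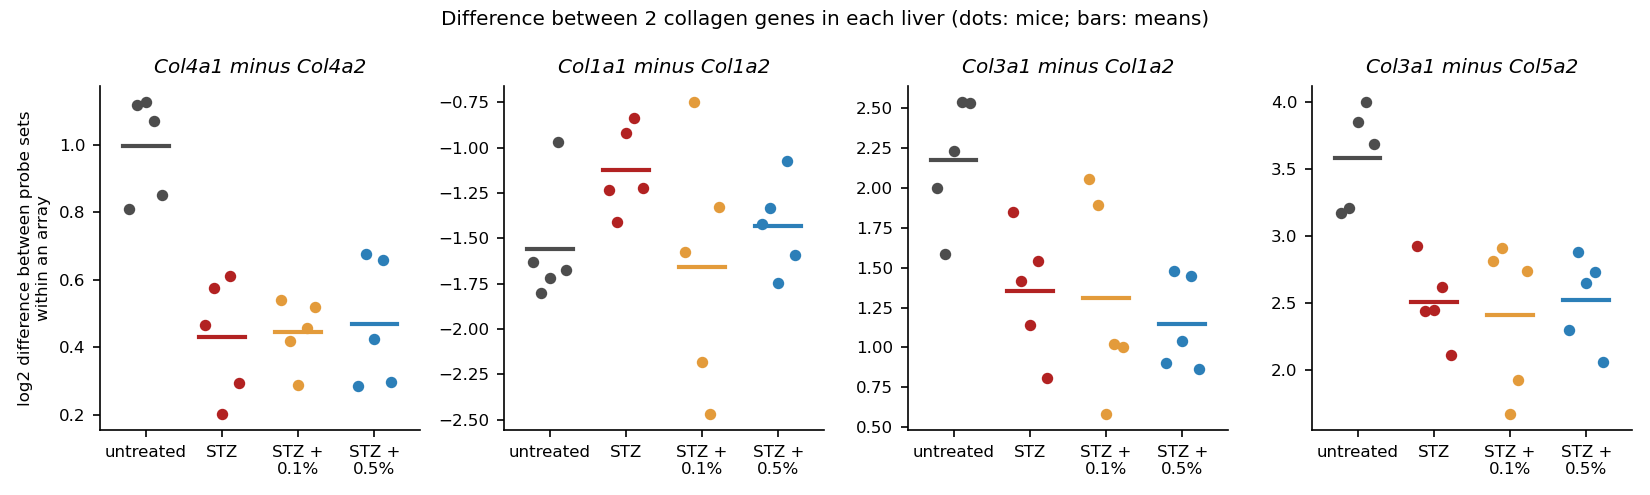
Difference on the log2 scale between the values of 2 collagen genes within each array, by group, with dots for mice and bars for means. With the brightest probe set of each gene, for Col4a1 minus Col4a2 and for Col3a1 minus Col5a2, the 15 STZ mice all lie below the 5 untreated mice; the groups overlap for Col1a1 minus Col1a2.

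The other pairs overlapped between groups. Col3a1 minus Col1a2 was 0.83 lower in STZ than in untreated mice, with 4 of 5 below the untreated range. Col1a1 minus Col1a2 was 0.43 higher in STZ mice and 0.15 higher over the 15 STZ mice.

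Col6a3, a chain of the microfibrillar collagen VI that surrounds cells, was the only one of the 9 whose values in all 15 STZ mice lay below every untreated mouse. Over all genes, 2.36% showed such a separation downwards. Untreated mice had 67.8, 83.2, 92.7, 97.5 and 92.9, and STZ mice had 62.1, 37.1, 53.4, 46.4 and 44.1. The phloridzin groups had 47.5, 60.3, 42.7, 33.0 and 40.2 at 0.1% and 40.3, 59.6, 33.5, 64.1 and 46.5 at 0.5%. The highest STZ-treated value came from the 0.5% group and lay close to the lowest untreated value. Col6a3 was 1.60-fold lower in STZ mice (−0.67 ± 0.14 SE, limma adjusted p = 0.00396).

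Pdgfrb encodes the receptor for PDGF-B that marks stellate cells and pericytes and drives stellate cell division. Its signal was 75.6, 89.1, 105, 124 and 108 in untreated mice. It was 33.6, 40.7, 28.7, 50.2 and 36.4 in STZ mice, all well below the untreated range. The means were 37.9 ± 8.12 and 100.3 ± 18.7 (SD, n = 5 each), and Pdgfrb was 2.15-fold lower (−1.11 ± 0.20 SE, limma adjusted p = 0.00111). Under phloridzin the values were 63.4, 61.9, 36.9, 25.0 and 45.1 at 0.1%, all below the untreated range. At 0.5% they were 30.8, 87.4, 44.5, 69.7 and 58.6, and the second mouse lay inside the untreated range. The call rested on 1 probe set. The other Pdgfrb probe set was above background on 5 of 20 arrays and differed by −0.21 (limma adjusted p = 0.721).

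Lum, a keratan sulfate proteoglycan that spaces collagen fibrils, was not called in any comparison. Its signal was 170.0, 141, 196, 215 and 184 in untreated and 219, 248, 149, 243 and 146 in STZ mice. Of the STZ mice, 3 lay above the untreated range and none below it. The difference was 0.12 (95% interval −0.24 to 0.47, limma adjusted p = 0.695). Lox, the enzyme that starts collagen crosslinking, gave a signal of 0.928 to 18.8 over the 20 arrays. Only 2 arrays, both untreated, were above background, and the other Lox probe sets were above it on none, so no fold is given.

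The comparisons of each phloridzin group with untreated mice use the same 5 untreated arrays, and are given side by side for that reason. The same 5 genes were called lower in each, and over the mean of the 3 STZ groups. In the 0.1% group against untreated mice, 8.98% of all genes were called lower, in the 0.5% group 6.18%, and for the mean of the 3 STZ groups 12.2%. All mice lay below all untreated mice for 3 of the 9 genes at 0.1% (Col1a2, Col6a3 and Pdgfrb; 7.13% of all genes) and for 3 at 0.5% (Col3a1, Col4a1 and Col6a3; 5.71% of all genes). Col3a1 was 2.49-fold lower at 0.1% (limma adjusted p = 0.00812) and 2.71-fold lower at 0.5% (limma adjusted p = 0.00592). Pdgfrb was 1.90-fold lower at 0.1% (limma adjusted p = 0.00374) and 1.61-fold lower at 0.5% (limma adjusted p = 0.0282). Col6a3 was 1.70-fold and 1.60-fold lower (limma adjusted p = 0.00136 and 0.00413). Col4a1 was 1.50-fold and 1.65-fold lower (limma adjusted p = 0.0362 and 0.0160), and Col1a2 1.36-fold and 1.33-fold (limma adjusted p = 0.0168 and 0.0343).
Some of these calls were lost when 1 mouse was left out or another setting was used. At 0.1%, Col4a1 was not called without untreated replicate 1, 3 or 4 or without 0.1% replicate 3, 4 or 5 (limma adjusted p up to 0.104), nor with arrays centred on their median (0.0607), the mean of its probe sets (0.0747) or a pseudocount of 1 (0.0508). At 0.5%, Col1a2 was not called without untreated replicate 2, 3 or 4 or without 0.5% replicate 1 or 3 (up to 0.108). Pdgfrb at 0.5% was not called without untreated replicate 3, 4 or 5 or without 0.5% replicate 1, 3 or 5 (up to 0.0956). With the mean of its probe sets it differed by −0.37 in place of −0.69 (limma adjusted p = 0.207), and with a pseudocount of 1 the adjusted p was 0.0509. Col4a1 at 0.5% was not called without 0.5% replicate 1 (0.0538). Read from the second brightest probe set, Col3a1 and Col1a2 were not called at 0.5% (limma adjusted p = 0.0830 and 0.0593). Nor were Col4a1 at 0.1% (0.187) or Pdgfrb at 0.1% (0.363) and 0.5% (0.938). Only 2 of the 9 genes were called at 0.5% without 0.5% replicate 1, and 3 without untreated replicate 3 or 4 or 0.5% replicate 3.

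A test of any difference among the 4 groups called the same 5 genes, and 12.9% of all genes. The limma adjusted p was 0.00313 for Col6a3, 0.00363 for Pdgfrb, 0.00902 for Col3a1, 0.0211 for Col4a1 and 0.0215 for Col1a2. For the 4 others it lay between 0.426 and 0.629. Over the mean of the 3 STZ groups, Col3a1 was 2.58-fold lower (limma adjusted p = 0.000895), Pdgfrb 1.87-fold (0.000545), Col6a3 1.63-fold (0.000266), Col4a1 1.62-fold (0.00275) and Col1a2 1.38-fold (0.00267).

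Phloridzin was not seen to move any of the 9 genes in STZ mice. None was called at 0.1% or 0.5% against STZ alone, or between the doses, where limma also called 0% of all genes. At an unadjusted p under 0.05, 685 of all genes differed at 0.1% against STZ, 622 at 0.5% against STZ and 840 between the doses. Pdgfrb at 0.5% was the only one of the 9 genes to reach an unadjusted p under 0.05. It was higher by 0.42 than in STZ mice (95% interval 0.0052 to 0.83, limma adjusted p = 0.996), and 2 of its 5 values lay inside the range of the STZ mice. The intervals of the other genes hold 0 and are wide. Against STZ, the interval for Col3a1 ran from −0.63 to 0.70 at 0.1% and from −0.76 to 0.57 at 0.5%. For Col6a3 it ran from −0.39 to 0.21 and from −0.31 to 0.29, and for Col4a1 from −0.19 to 0.59 and from −0.32 to 0.46. A return of Col3a1 to the untreated level, 1.35 above STZ, thus lay outside both intervals. Both comparisons with STZ share the 5 STZ arrays.

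**Figure D3:**
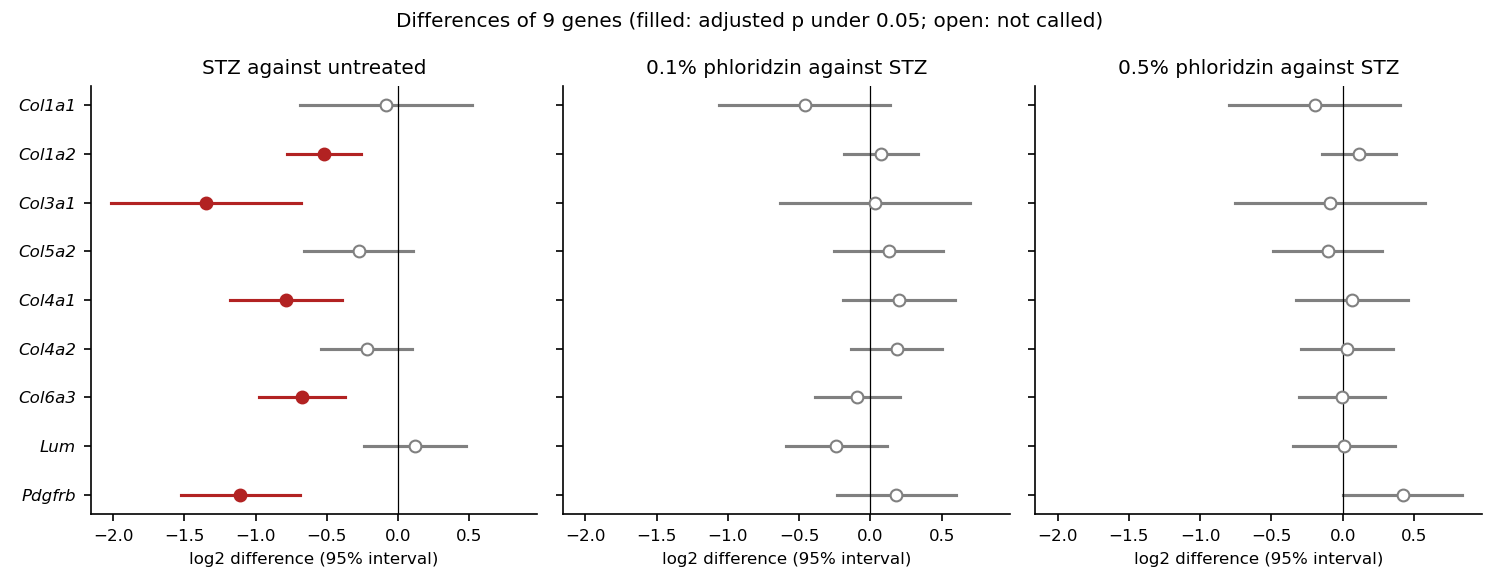
Log2 difference of the 9 measured genes with 95% intervals for STZ against untreated mice and for each phloridzin dose against STZ mice; filled points passed an adjusted p of 0.05 and open points did not. The 5 filled points in the first panel are negative, and every point in the other panels is open, with all intervals but that of Pdgfrb at 0.5% crossing 0.

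Within groups the genes rose and fell together from mouse to mouse. After the group means were removed, the 36 pairs of genes had a median Pearson correlation of 0.62 over 20 arrays, from 0.11 for Col6a3 with Lum to 0.87 for Col4a1 with Col4a2, and 26 pairs were above 0.5. Arrays share their RNA extract and hybridization, so these correlations are a description. Col3a1 and Col4a1 followed the mean of the other genes most closely (0.91 and 0.90) and Lum least (0.51). Untreated replicate 4 was the highest of its group for 9 of 9 genes. STZ replicate 1 was the highest for 5 genes, 0.1% replicate 1 for 5, 0.1% replicate 2 for the remaining 4, and 0.5% replicate 2 for 6.

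**Figure D4:**
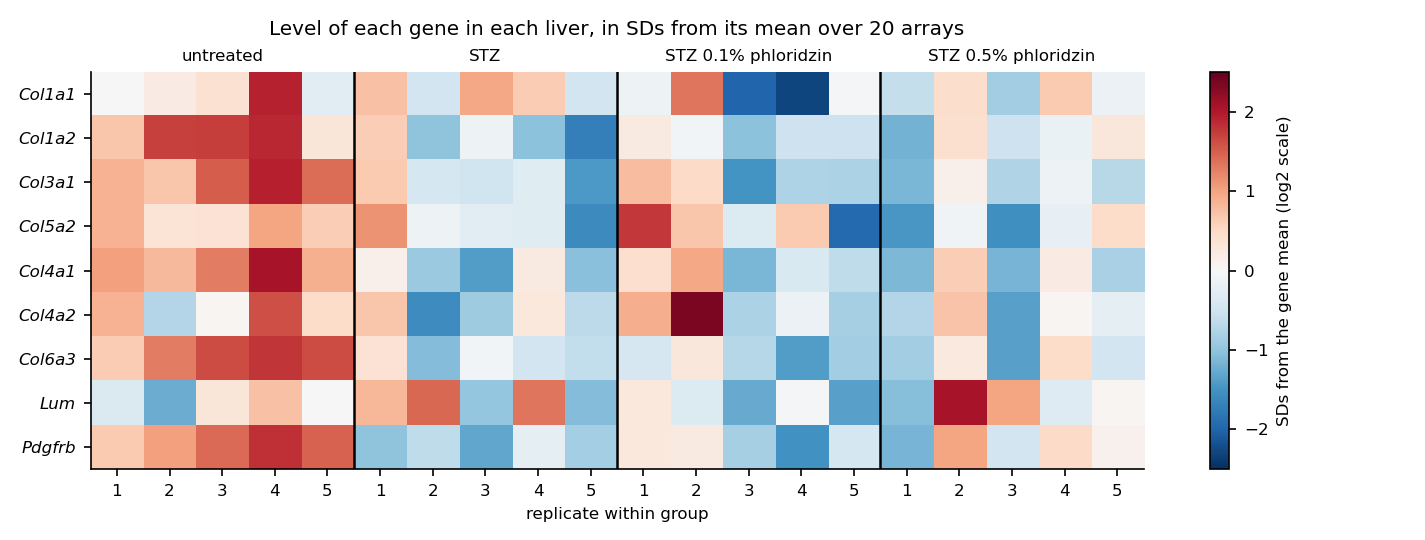
Level of the 9 genes in each of the 20 livers, as SDs from each gene's mean over all arrays on the log2 scale, red above and blue below. Untreated replicate 4 is high throughout, and replicates 1 and 2 of the 0.1% group lie above replicate 3 of that group in all 9 rows.

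The 8 genes outside the set whose within-group values followed the mean of the 9 most closely were Sqle (0.91), 2010003K11Rik, Gadd45a and Gstp3 (0.89 each), Acsl5 and Camk2g (0.88 each), and Elp4 and Igsf11 (0.87 each), over 20 arrays. Sqle is squalene monooxygenase of cholesterol synthesis, Acsl5 activates long-chain fatty acids and Gadd45a is induced by stress. Between groups, Acsl5 and Elp4 were lower in STZ mice (−0.55 and −0.53, limma adjusted p = 0.0361 and 0.0119), and the other 6 were not called there. Some genes ran against the mean of the 9 about as closely, among them Kcnk5 (−0.89), Ccn2 (−0.85) and Nnmt (−0.85). Variation from mouse to mouse was thus not particular to the collagens.

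Other genes of the matrix were read from lists, whose counts in STZ against untreated mice stand against the 6.89% of all genes called lower and 6.9% called higher. Of 13 other collagen chains that passed the filter, 2 fell in STZ mice, Col27a1 by 1.99-fold (limma adjusted p = 0.0128) and Col14a1, a fibril-associated collagen, by 1.32-fold (0.0308). The list median was −0.16. Over the mean of the 3 STZ groups, limma called 1582 of all 12947 genes lower and 1413 higher. Of the 13 chains, 4 were lower there and 1 higher. The lower ones were Col27a1, Col14a1, Col6a2, a partner chain of Col6a3 (1.29-fold, limma adjusted p = 0.0345), and Col5a3, a chain of collagen V (−0.76 on the log2 scale, 0.0373). Col13a1 was 1.24-fold higher (0.0282).

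Among 16 enzymes of collagen folding, processing and crosslinking, 3 fell and 1 rose in STZ mice, with a median of −0.18. Ppib, a prolyl isomerase of the endoplasmic reticulum, was 1.45-fold lower (limma adjusted p = 0.00579). Pcolce, which speeds the removal of the procollagen C-propeptide, was 1.44-fold lower (0.0119), and Loxl1, a relative of Lox, 1.56-fold lower (0.00684). Plod1, a lysyl hydroxylase, was 1.29-fold higher (0.0359).

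Of 19 matrix proteoglycans and glycoproteins, 2 fell (median −0.13): dermatopontin (Dpt), 1.59-fold, and elastin (Eln), 1.56-fold (limma adjusted p = 0.00436 and 0.0206). Decorin (Dcn), an abundant relative of Lum, had a difference of 0.11 (limma adjusted p = 0.693). Of 10 basement membrane partners of collagen IV, 2 fell (median −0.17). They were the nidogens, which link the collagen IV and laminin networks. Nid1 was 1.35-fold lower (limma adjusted p = 0.0242), and Nid2 had 15.2, below background, in STZ against 31.2 in untreated mice (0.0367). None of 12 matrix proteases and inhibitors and none of 5 collagen receptors was called.

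Of the 5 PDGF ligands and receptors outside the set that were measured, 1 fell. It was Pdgfc, a ligand of the PDGF receptors, 1.88-fold lower in STZ mice (limma adjusted p = 0.0144). Pdgfra, the other receptor, had a difference of −0.26 (limma adjusted p = 0.356). Of 19 genes of TGF-beta signalling, the receptor Tgfbr2 rose 1.79-fold (limma adjusted p = 0.00443) and Ccn1, a matricellular target, fell 3.02-fold (0.00135).

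**Figure D5:**
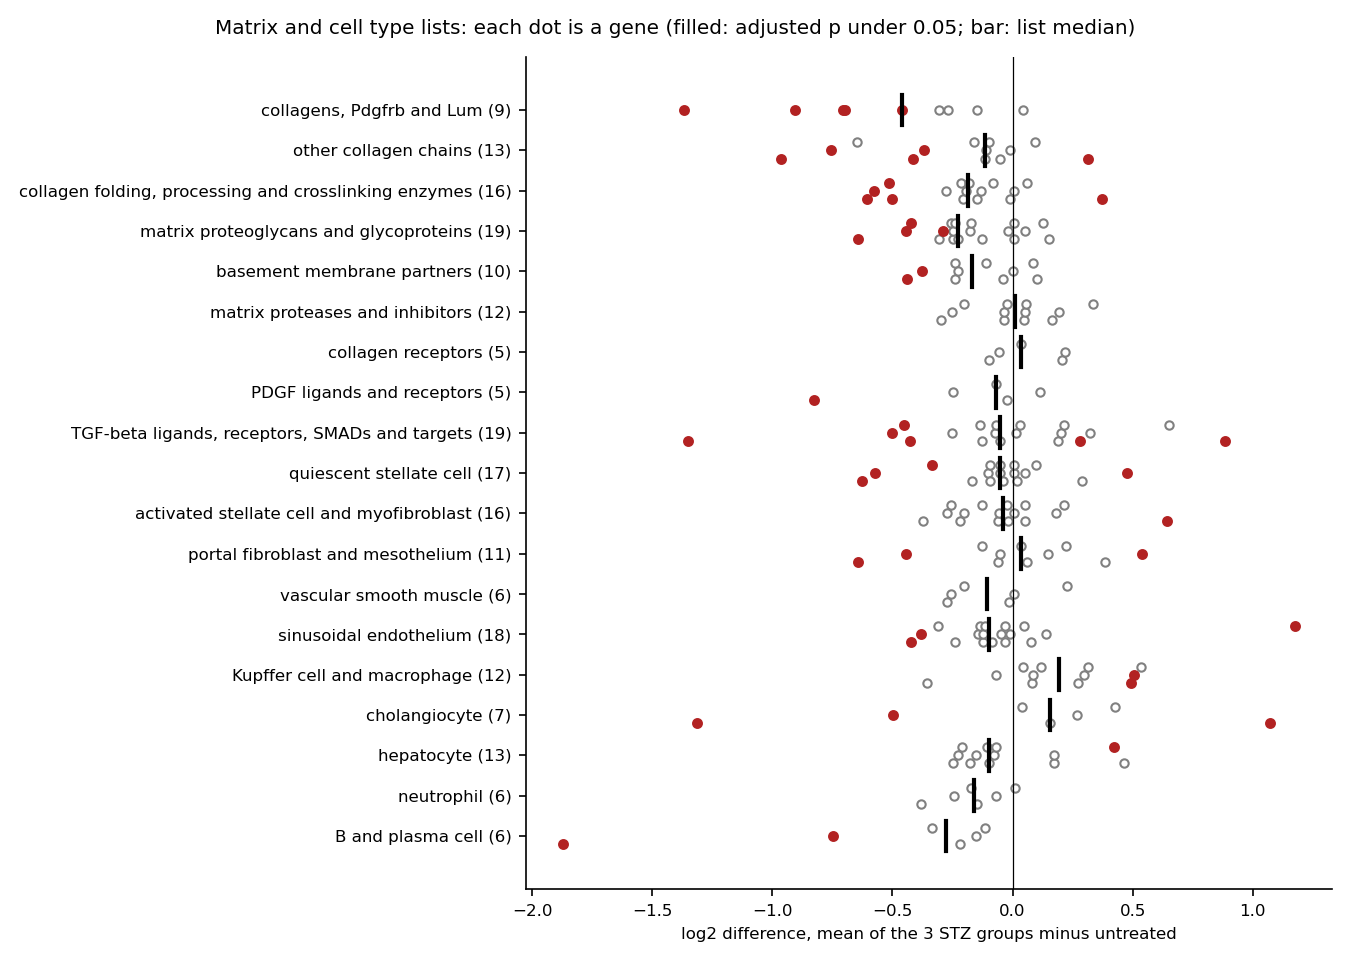
Log2 difference of the mean of the 3 STZ groups against untreated mice for each measured gene of the matrix, signalling and cell type lists with at least 5 measured genes (number in brackets), with filled dots past an adjusted p of 0.05 and bars for list medians. The collagens, Pdgfrb and Lum have a median of −0.46, and the lists of quiescent and activated stellate cells lie near the median of all genes, −0.04.

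Marker lists show which cells were read. Alb, the hepatocyte secretory marker, had signals of 8661 to 34074. The quiescent stellate cell marker Reln had 463 to 997 and the vitamin A enzyme Lrat 48.9 to 163, while Gfap was above background on 7 arrays. Of 17 measured quiescent stellate cell markers, 2 fell in STZ mice and none rose (median −0.08): Reln, 1.53-fold (824 to 531, limma adjusted p = 0.00104), and Adamtsl2, 1.50-fold (0.0204). Lrat had a difference of 0.19 (limma adjusted p = 0.689) and desmin (Des) −0.08 (0.832). Over the mean of the 3 STZ groups 3 of the 17 were called lower and 1 higher, against 1582 and 1413 of all 12947 genes. Hand2 went the other way from Reln, with medians of 48.3 in untreated, 61.3 in STZ, 69.6 in 0.1% and 87.3 in 0.5% mice. Colec11 medians were 622, 579, 414 and 541 in the same order. The summed signal of the 17 was 2866 to 3453 in untreated and 2598 to 2962 in STZ mice. It was 2370.2 to 2800.2 at 0.1% and 2675 to 2953 at 0.5% phloridzin. Only the STZ and 0.5% groups reached into the untreated range. The part of stellate cell RNA content in the fall of the collagens and Pdgfrb was not tested.

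Of 16 activated stellate cell and myofibroblast markers, 0 were called by limma in STZ mice (median −0.02). Acta2, the smooth muscle actin of myofibroblasts, had a difference of −0.16 (limma adjusted p = 0.631), Vim −0.37 (0.200) and Tagln −0.28 (0.344). Timp1 was above background on 2 of 20 arrays. The summed signal of these 16 was 5940.2 to 6664 in untreated and 5454 to 7175 in STZ mice. Most of that sum came from Fn1 alone, with 3985 to 6022 over the 20 arrays, so it says little of the dimmer markers. Over the 3 STZ groups 1 of the 16, Tpm2, was called higher, 1.56-fold (limma adjusted p = 0.00764). Of all 12947 genes, 1413 were called higher there.

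Other matrix-producing or neighbouring cells were read in the same way. Of 11 portal fibroblast and mesothelial markers, 2 fell, Dpt and Eln, both also on the matrix list. The summed signal was 342 to 465 in untreated and 342 to 394 in STZ mice, and the mesothelial genes Msln and Wt1 were at background throughout. None of 6 vascular smooth muscle markers was called. Of 18 sinusoidal endothelial markers, Lyve1 rose 2.29-fold (limma adjusted p = 0.00521) and Dnase1l3 fell 1.47-fold (0.0167), with a summed signal of 3800.5 to 4162 in untreated and 3041 to 4136 in STZ mice. Of 13 hepatocyte markers, 1 was called in STZ mice, the fibrinogen chain Fgb, 1.33-fold lower (limma adjusted p = 0.0404). The list median was −0.29, with 9 of 13 differences below 0, and its summed signal was 134990 to 155657 in untreated and 98566 to 140545 in STZ mice. Of 7 cholangiocyte markers, 2 fell and 1 rose. Cdh1 was 2.41-fold lower (limma adjusted p = 0.000186), Sox9 had 6.60, below background, against 21.2 (0.0012), and Krt23 was 2.33-fold higher (0.00765). The summed signal of the 7 was 426 to 571 in untreated and 271 to 582 in STZ mice. It came mainly from Cdh1 (91.8 to 451) and Krt23 (57.9 to 343). Krt19, which was not called, was above background on 14 of 20 arrays. Krt7 was above it on 1 array, Cldn7 on 2, Epcam on 5 and Sox9 on 6, so the list as a whole reads cholangiocytes poorly. Of 12 Kupffer cell and macrophage markers, Cd5l rose 1.43-fold (limma adjusted p = 0.0166) and Lyz2 fell 1.44-fold (0.0397), and none of 6 neutrophil markers was called. Of 6 B and plasma cell markers, 2 fell, Ighm 4.22-fold (354 to 72.0, limma adjusted p = 0.000112) and Jchain 1.66-fold (0.00191). Of 2 measured pancreatic genes, 1 was called in STZ mice, the acinar gene Cela1, which fell 2.86-fold (limma adjusted p = 0.00161). The other, Prss2, was not called, with signals of 4.50 to 43.4 and above background on 15 arrays. The pancreatic genes Cpa1, Ctrb1 and Ins2 were at background. The part of these other cells in the fall of the collagens was not tested.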

How the data were processed

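Total liver RNA of 20 mice was hybridized to Affymetrix arrays, 1 per mouse, per the labels. The authors deposited 1 signal intensity per probe set and array on a linear scale. The summary method and its software are not given in the sources used here. In the values, the mean of each array without the top and bottom 2% was 100.001, so arrays had been scaled to a common mean. The array held 45101 probe sets. A single gene was assigned to 34945 of them (18193 genes), several genes to 932 and none to 9160, and the remaining 64 are controls.

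For each gene the probe set with the highest mean was used, and genes below the 40th percentile of all probe-set means (signal 8.48) were left out. Limma 3.58.1 in R 4.3.3 fitted log2(intensity + 16) over the 4 groups, with 16 residual degrees of freedom. Benjamini-Hochberg adjustment ran over 12947 genes, and the fit was tested on simulated data. For further probe sets read on their own it ran over 34945 probe sets. The number of arrays limits precision: the median 95% half-width was 0.30 on the log2 scale, or 1.23-fold. No label ties the replicate numbers to a shared source. The labels give separate mice. Within-array differences between collagen genes are given with no test.

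Named genes were all 10 members in every comparison. From each list, up to 4 called genes by smallest p were taken for STZ and for the mean of the 3 STZ groups against untreated mice. The 8 genes most correlated within groups with the members, some of those most opposed to them, and markers at background were also named. Others named from lists, such as Dcn, Pdgfra, Lrat, Des, Acta2, Vim and Tagln, were chosen after their values were seen. The members and lists were chosen with earlier results of these data known. Alternatives covered scaling, probe set, filter, pseudocount, array weights, prior, samples in the fit, the replicate block and each array left out. Sequences and coordinates are from RefSeq tables on GRCm38.p6, and no sequence is given for Lox or Pdgfrb.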

Additional observations from a re-analysis of the deposited data

How the results depend on the processing

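In the comparisons with untreated mice, the median difference of the 9 genes stayed negative under every alternative run. Against STZ, no alternative called any of the 9 at either phloridzin dose, and the medians lay on both sides of 0, from −0.063 to 0.17 at 0.1% and from −0.067 to 0.0997 at 0.5%. Reading each gene with more than 1 probe set from its second brightest gave 3 called in STZ against untreated mice, 3 at 0.1% phloridzin against untreated, 2 at 0.5% against untreated and 2 in the test of any difference, where 5 were called each time with the brightest. In STZ mice Col1a2, Col4a1 and Pdgfrb were then not called (limma adjusted p = 0.123, 0.0671 and 0.636), and Col1a1 was (0.0340). Col3a1 stayed called, as did Col6a3, which has only 1 probe set. Col5a2 did not pass the filter there. Of all genes, 534 were called lower and 579 higher in that run. With a pseudocount of 64 the median at 0.1% against untreated was −0.33. When 1 array was left out, the count at 0.5% against untreated ranged from 2 to 5 and that of any difference from 3 to 5 (3 without untreated replicate 3 or 4). At 0.1% against untreated it ranged from 4 to 6, and for STZ and for the mean of the 3 STZ groups it was 5 each time. Each further probe set of the 9 genes was also read on its own, an alternative added after seeing the data. In the 4 comparisons with untreated mice, 2 of 28 such differences had the opposite sign to that of the brightest: Col5a2 in STZ mice (0.13, limma adjusted p = 0.762) and a Col1a2 probe set above background on no array at 0.1% (0.052, 0.855). The 28 are 7 probe sets in 4 comparisons that share the 5 untreated arrays, so they are not separate readings. Of 9 further probe sets, those of Lox included, 2 were called lower in STZ mice and 1 at 0.1%. At 0.5% 0 were, and 4 over the mean of the 3 STZ groups. Among the STZ groups, where none of the 9 genes was called, 12 of 21 such differences had the opposite sign.

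Pairing by replicate number was looked at in same-numbered arrays: of 30 such pairs, 13 had deviations correlated above 0.1 (range −0.41 to 0.50). No differently numbered pairs are given beside them, so the count cannot decide whether arrays are paired. With the replicate number as a block, 5 of the 9 genes were called in STZ against untreated mice and 1923 of all genes against 1785.

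Over all genes, the 1785 calls in STZ against untreated became 1113 with the second probe set, 2851 with array weights and 1171 without STZ replicate 5. The 1646 at 0.5% against untreated became 1069, 2610 and, without untreated replicate 1, 0.5% replicate 1 or 0.5% replicate 5, 1084, 944 and 980. Centring arrays on their median turned the 893 higher and 892 lower calls in STZ mice into 1138 and 509. Dim probe sets limit what can be said of Lox, Col1a1 and Col5a2.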

Other observations

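Among the 15 STZ mice of the 3 diets, the 5 with the highest Col3a1 signal also had Cyp4a14 and Nnmt at levels apart from the rest. These values were noticed in the data and not tested, and the mice are no group of the study. Cyp4a14 is a fatty acid hydroxylase and Nnmt methylates nicotinamide. The 5 highest Col3a1 signals were 517 and 434 in 0.1% phloridzin replicates 1 and 2, 483 in STZ replicate 1, and 354 and 309 in 0.5% phloridzin replicates 2 and 4. In that order Cyp4a14 was 1014, 964, 48.9, 734 and 807, and Nnmt was 749.8, 1232, 932, 591 and 937. In the other 10 STZ mice Col3a1 lay between 136 and 279, Cyp4a14 between 2491 and 6103 and Nnmt between 2016 and 3439.6. Sqle, the gene most like the collagens within groups, overlapped, at 89.5 to 155 in the former 5 and 25.4 to 94.2 in the other 10. In untreated mice Cyp4a14 was 5.80 to 33.1 and Nnmt 24.0 to 65.0.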
